A study of Arabidopsis thaliana with 4 samples.

Results

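The genes described here are 6 early response genes of the plant hormones auxin and cytokinin: GH3.1, GH3.3, GH3.5, IAA29, ARR15 and ARR16. They were chosen by name, each has a single probe set annotated with 1 gene, and they are 6 of the 13350 genes that could be named on the arrays. The annotation lists GH3.5 under its other symbol WES1 and ARR16 as RR16. RNA came from Arabidopsis thaliana shoots, with 2 arrays from plants that overexpress bHLH122, a transcription factor of the basic helix-loop-helix family, in the Col-0 background, and 2 arrays from untransformed Col-0. Seeds were stratified for 96 h, plants spent 1 week on MS medium and 2 weeks in soil, and all above-ground tissue was taken; the overexpressors are labelled as 3 weeks old. The labels call the overexpressor arrays independent lines, while both titles carry line number 18, so line was not a term of any comparison. The sources used here give neither the transgene's promoter nor the number of pooled plants. Whether arrays of a group stem from separately grown plants is not stated, and the p-values then cover only the spread among these arrays, which may be technical.

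Auxin is perceived by F-box receptors that send AUX/IAA repressors to degradation, which frees auxin response factors to switch on early genes. GH3 enzymes are among the products of these genes and join amino acids to auxin, so that induced GH3 genes lower the pool of free auxin. Cytokinin signals through a phosphorelay in which DNA-binding type-B response regulators induce the type-A regulators, and these dampen the pathway. In shoots both hormones shape organ growth, and the early genes are widely used as readouts of hormone response.

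The question put to the data was which of these genes differed between bHLH122 overexpressor and wild-type shoots, and whether genes of the same family or hormone differed alike. Of the 6 genes, 1 passed the adjusted threshold of 0.05 in limma, a linear model with variance shared over probe sets: GH3.5 was lower in the overexpressors. Over all 22746 probe sets tested, 24.0% passed in either direction and 11.8% were lower, so that 1 of 6 is near the background. The groups did not overlap for 4 of the 6 genes, against 61.2% of all probe sets, again near the background. None of the 6 reached a 2-fold difference with the groups apart, which 3.41% of probe sets did. The median log2 fold change of the 6 genes was -0.0027, and that of all probe sets was -0.016.

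The arrays of a group were close, with r across probe sets at 0.997 for the overexpressor pair and 0.996 for the wild-type pair (probe sets are not independent replicates). Median signal was 40.2 to 40.8 on the overexpressor arrays and 39.2 to 40.0 on the wild-type arrays. No probe set is paired with bHLH122 (FBH3 in the gene table), so the labels could not be checked by the targeted gene. In log2 signal the 4 measured leaf genes ran from 12.3 to 14.0 on overexpressor and from 11.9 to 13.6 on wild-type arrays. Of these 4, 3 were higher in the overexpressors in limma, where 12.2% of all probe sets were. The root hair genes EXPA7 and EXPA18 stayed between 3.43 and 4.58 on all arrays, the third measured root gene, PYK10, was between 7.99 and 8.36, and the stem cell gene CLV3 between 3.03 and 3.22. The part of tissue makeup in the results below was not tested, and in whole shoots fewer cells of a type and less RNA per cell cannot be told apart. The poly-A control transcripts, spiked in ahead of the labelling step, averaged less signal in the overexpressors on 24 of 24 probe sets, with a median log2 difference of -0.59. The hybridization controls, added after labelling, were also lower in the overexpressors on 18 of 18 probe sets, with a median log2 difference of -0.25. Centring on the poly-A controls raised the median log2 fold change of all probe sets to 0.60. The fold changes below are those of the deposited scaling and are therefore to be read relative to the median of all probe sets.

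**Figure D1:**
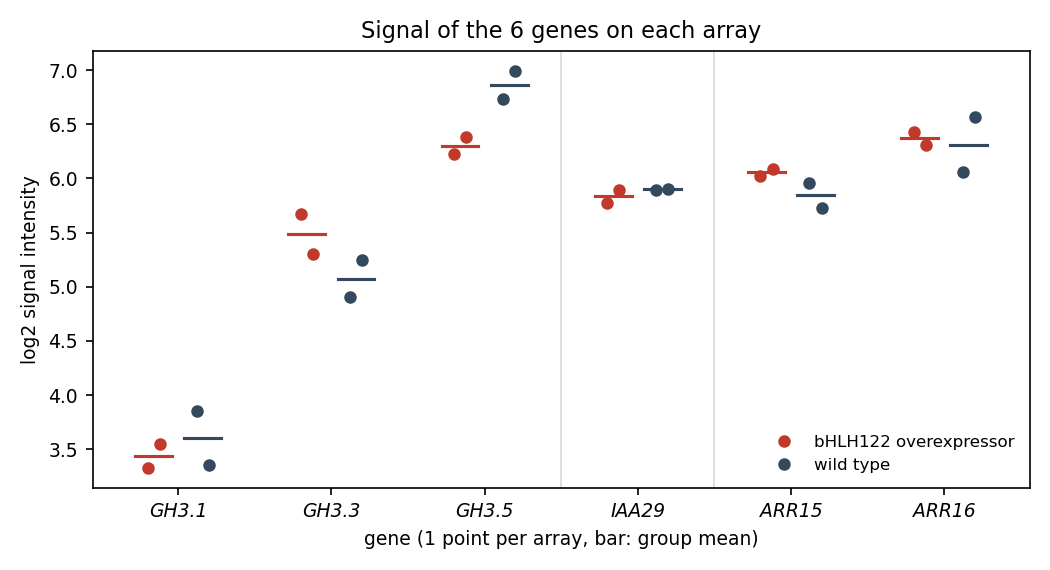
Log2 signal intensity of each gene on each array, with bHLH122 overexpressors left of wild type and 1 point per array; bars are group means (n = 2). GH3.5 lay between 6.23 and 6.38 in the overexpressors, below both wild-type arrays at 6.73 and 6.996, whereas the points of GH3.1 and ARR16 overlap between the groups.

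Among the GH3 genes, GH3.5 (AT4G27260) encodes an amido synthetase that acts on auxin and also on salicylic acid. Its signal was 74.9 and 83.3 on the overexpressor arrays, against 106 and 128 on the wild-type arrays. Both overexpressor arrays thus lay below both wild-type arrays, and the group means were further apart than the arrays of either group, which differed by 0.15 in the overexpressors and 0.27 in wild type on the log2 scale. Overexpressors averaged a log2 signal of 6.30 ± 0.11, against 6.86 ± 0.19 for wild type (SD, n = 2 each). GH3.5 fell by 0.56 on the log2 scale (SE 0.13, 95% interval -0.87 to -0.25, limma adjusted p = 0.0244), which is a 1.47-fold higher signal in wild type. A fall larger than this was seen for 6.51% of all probe sets. The call did not hold without overexpressor replicate 1 (log2 fold change -0.48, adjusted p = 0.0943) or without wild-type replicate 2 (-0.43, adjusted p = 0.0938). Centred on the poly-A controls, the log2 fold change was 0.058 (adjusted p = 0.833), which is -0.54 relative to the median of all probe sets under that scaling.

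GH3.3 (AT2G23170), a strongly auxin-inducible amido synthetase gene, had a signal of 51.0 and 39.5 in the overexpressors and 30.0 and 37.9 in wild type. The groups did not overlap, but overexpressor 2 and wild type 2 were nearly level, with a difference of 0.062 in log2 signal, while overexpressor 1 and wild type 1 were 0.77 apart. The log2 fold change was 0.41 (SE 0.17, 95% interval 0.0043 to 0.82). Its unadjusted p was 0.0482 and its limma adjusted p 0.135, so it did not pass.

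GH3.1 (AT2G14960), whose product belongs to the same auxin-conjugating group, gave a dim signal, 10.03 and 11.7 in the overexpressors and 14.4 and 10.2 in wild type. On overexpressor 1 and wild type 2 the signal lay below the lower quartile of all probe sets, where a change in transcript level is understated. The groups overlapped, wild type 1 alone was high, and the log2 fold change was -0.17 (SE 0.18, 95% interval -0.60 to 0.27, limma adjusted p = 0.571).

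**Figure D2:**
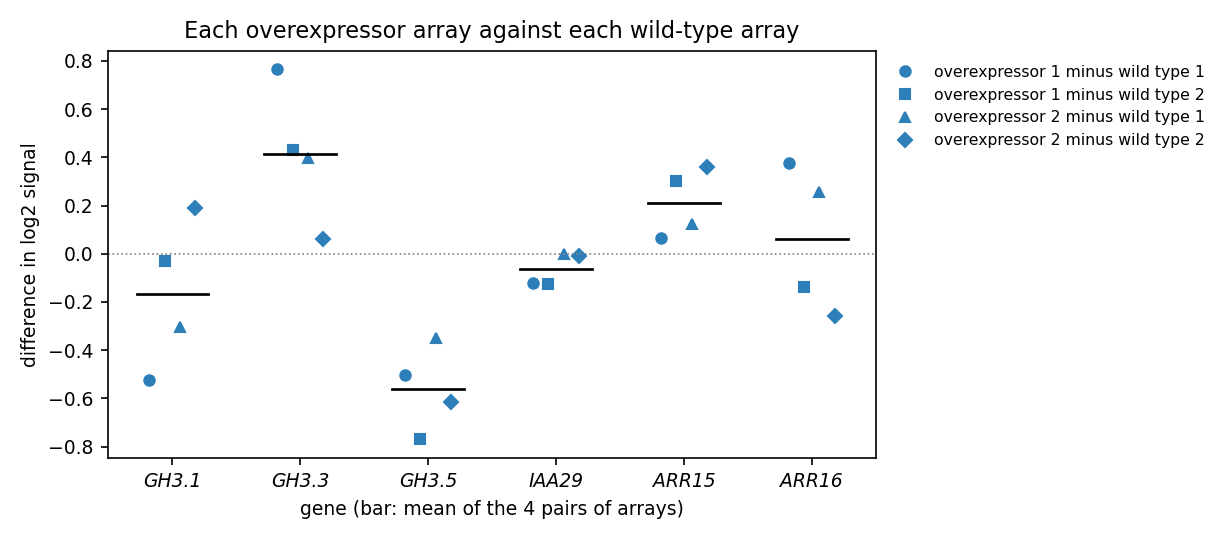
Difference in log2 signal for each pairing of an overexpressor array with a wild-type array (4 symbols per gene); the bar is their mean, which equals the log2 fold change. The 4 differences of GH3.5 run from -0.77 to -0.35 and those of GH3.3 from 0.062 to 0.77, whereas GH3.1 and ARR16 have differences on both sides of 0.

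The fold changes of GH3.3 and GH3.5 had opposite signs. The log2 difference between them, GH3.3 minus GH3.5, was 0.97 higher in the overexpressors than in wild type, and 0.68 to 1.27 higher over the 4 pairings of arrays. This difference between 2 genes of an array is unaffected by centring. It was the same sign on both overexpressor arrays, 1.23 for overexpressor 1 and 0.71 for overexpressor 2 against the wild-type mean. The exact permutation test over arrays gave p = 0.333 (two-sided), the smallest value that 2 arrays against 2 allow, and 0.667 after Benjamini-Hochberg adjustment over the 4 differences computed, so this test cannot reach the threshold with these arrays.

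For the other pairs of GH3 genes the groups overlapped. GH3.1 minus GH3.5 was 0.39 higher in the overexpressors, with a range of -0.018 to 0.81 over the array pairings (exact permutation p = 0.667, adjusted 0.667). GH3.3 minus GH3.1 was 0.58 higher, with a range of -0.13 to 1.29 (exact permutation p = 0.667, adjusted 0.667). The gene models of GH3.3 and GH3.5 span 2708 and 2707 bp in TAIR10.1, introns included. With the trend of signal with gene length removed, GH3.3 had a log2 fold change of 0.36 and GH3.5 one of -0.62 (limma adjusted p = 0.211 and 0.0232).

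IAA29 (AT4G32280) encodes an AUX/IAA repressor that is itself induced by auxin and, in Arabidopsis seedlings, by shade. Its signal was 54.8 and 59.5 in the overexpressors and 59.6 and 59.8 in wild type. The wild-type arrays differed by only 0.0064 in log2 signal, and overexpressor 2 lay just below them. The groups did not overlap, although the log2 fold change was only -0.065 (SE 0.099, 95% interval -0.30 to 0.17, limma adjusted p = 0.703). A larger absolute change was seen for 79.7% of all probe sets.

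Both type-A regulators are negative regulators of cytokinin signalling and are induced by the hormone. ARR15 (AT1G74890) had a signal of 65.2 and 67.9 in the overexpressors and 62.4 and 52.9 in wild type. Both overexpressor arrays lay above both wild-type arrays, but the wild-type arrays were 0.24 apart in log2 signal, more than the group means. Its log2 fold change was 0.21 (SE 0.12, 95% interval -0.069 to 0.49, limma adjusted p = 0.248). Leaving out wild-type replicate 1 gave 0.33 and leaving out replicate 2 gave 0.093, neither past the threshold. With the trend with gene length removed, ARR15, whose gene model spans 1579 bp, had a log2 fold change of 0.46 and passed (limma adjusted p = 0.0434).

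ARR16 (AT2G40670) had a signal of 86.3 and 79.4 in the overexpressors and 66.6 and 94.9 in wild type. Both overexpressor values fell between the wild-type values, which were 0.51 apart on the log2 scale. The log2 fold change was 0.059 (SE 0.18, 95% interval -0.37 to 0.48, limma adjusted p = 0.857), and its sign depended on which wild-type array was kept: -0.20 when wild-type replicate 1 was left out and 0.31 when replicate 2 was.

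Set side by side, the 4 auxin genes had a median log2 fold change of -0.12 with 1 lower and none higher past the threshold. The 2 cytokinin genes had one of 0.14 with none past it. Over all probe sets 11.8% passed lower and 12.2% higher. The mean log2 signal of the 4 auxin genes minus that of ARR15 and ARR16 was 0.23 lower in the overexpressors (change -0.23, range -0.31 to -0.15 over the array pairings). The groups did not overlap in this value, and the exact permutation test again gave its smallest possible p of 0.333 (adjusted 0.667). ARR15 and ARR16, with log2 fold changes of 0.21 and 0.059, contributed to this difference as well as the auxin genes. Without GH3.5, an alternative chosen after its values were seen, the change kept its sign but was smaller, at -0.075. Its range was -0.18 to 0.029 (exact permutation p = 1). No other gene was left out in turn.

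**Figure D3:**
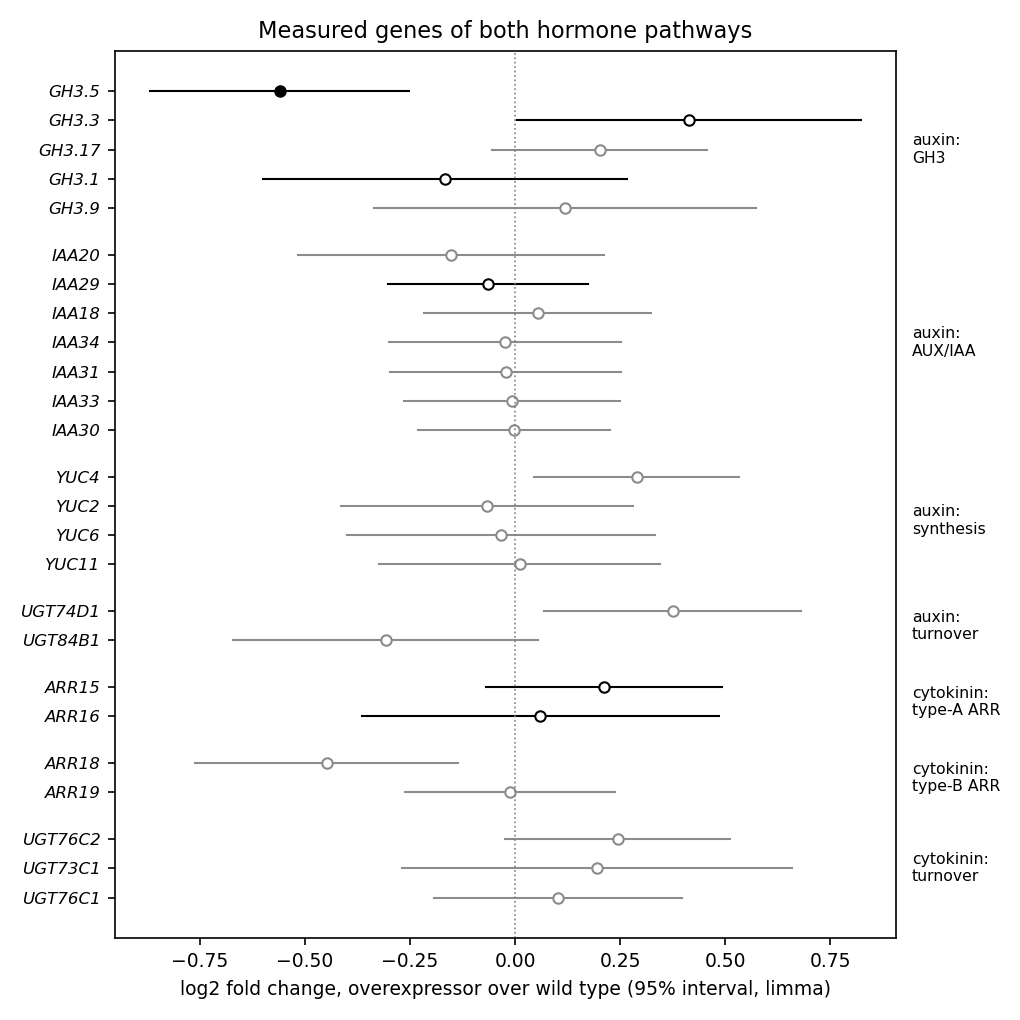
Log2 fold change, overexpressor over wild type, of the 25 measured genes of the auxin and cytokinin lists, with 95% intervals from limma; the 6 genes of the report are black, the others grey, and a filled point passed the adjusted threshold. Only GH3.5 is filled, and the intervals of 20 of the 25 genes include 0.

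A listed gene counts as measured if the annotation used here names a probe set for it alone. This gave 5 genes for 25 listed GH3 symbols, 7 for 41 AUX/IAA symbols and 4 for 21 auxin synthesis symbols. It gave 2 for 10 type-A regulator symbols, so both hormone lists were covered only in part. Of the wider auxin list, 14 other genes were measured, and none passed in limma in either direction (24.0% of all probe sets did). Of the 14, 2 had an unadjusted limma p under 0.05 (36.2% of all probe sets), and the median log2 fold change was -0.0054. GH3.17, whose product joins glutamate to auxin, showed a log2 fold change of 0.20 (SE 0.11), and GH3.9, a further member of the family, one of 0.12 (SE 0.19). Together with the 3 genes above, 1 of 5 measured GH3 genes was lower and none higher, against 11.8% and 12.2% of all probe sets. Of the AUX/IAA repressors 0 of 7 passed, against 24.0% of all probe sets, with log2 fold changes of -0.15 for IAA20, which lacks the degron through which auxin acts, 0.054 for IAA18 and -0.025 for IAA34. IAA18 was bright, at 265 and 277 in the overexpressors and 243 and 281 in wild type, and its groups overlapped.

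The YUC genes encode flavin monooxygenases that make auxin, and 0 of 4 passed, where 24.0% of all probe sets did. YUC4 had a signal of 11.6 and 11.0 in the overexpressors and 9.58 and 8.89 in wild type, a log2 fold change of 0.29 (SE 0.10, unadjusted p = 0.0269, limma adjusted p = 0.0880), at the low end of the signal range. YUC2 (-0.067) and YUC6 (-0.034) were close to 0. Of the auxin glucosyltransferases, UGT74D1 had a signal of 183 and 183 in the overexpressors, against 127 and 157 in wild-type plants (log2 fold change 0.37, SE 0.13, limma adjusted p = 0.0800). Its groups were apart, and it passed in 5 of the 14 alternative settings, among them quantile normalization (adjusted p = 0.0462). For UGT84B1 the log2 fold change was -0.31 (SE 0.15, adjusted p = 0.198). It was -0.10 when wild-type replicate 1 was left out and -0.52 when replicate 2 was. The signal of UGT84B1 was dim, at 9.75 and 9.74 in the overexpressors and 13.9 and 10.5 in wild type. It lay below the lower quartile of all probe sets on 3 arrays, and wild type 1 alone was higher.

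Of the wider cytokinin list, 5 other genes were measured and none passed in limma (24.0% of all probe sets did), with 1 at an unadjusted p under 0.05 (36.2% of all probe sets); their median log2 fold change was 0.10. That gene was ARR18, a type-B regulator, with a signal of 8.14 and 10.2 in the overexpressors and 12.4 and 12.4 in wild type. Its log2 fold change was -0.45 (SE 0.13, limma adjusted p = 0.0515), and its adjusted p was 0.0353 after quantile normalization and 0.0404 after median centring. Both overexpressor arrays fell below the lower quartile of all probe sets for ARR18, so this signal is near the floor of the arrays. ARR19, also of type B, had a log2 fold change of -0.012. The cytokinin glucosyltransferases UGT76C2 (0.24, SE 0.11), UGT73C1 (0.20, SE 0.19) and UGT76C1 (0.10, SE 0.12) did not pass. Auxin receptors, response factors and carriers, SAUR genes, the cytokinin receptors and phosphotransfer proteins, and the IPT, LOG, CKX and CRF genes are not analysed here.

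The genes with patterns most like each gene over the 4 arrays were sought among 13349 other named genes, by the root-mean-square distance between log2 signals centred on each gene's own mean. For GH3.5 they were AT1G18390 (distance 0.019) and AT3G04890 (0.024), and for GH3.3 AT1G56670 (0.013) and AT1G69580 (0.027). For GH3.1 they were AT2G21680 and AT1G35500, for IAA29 AT1G26660 and AT5G51420, for ARR15 AT2G21080 and AT4G23860, and for ARR16 AT5G20110 and AT3G26490. None of the 6 genes was among the nearest pair of another. With 2 taken from 13349 genes on 4 arrays, close matches are easily found and a match within the 6 was unlikely in advance. Neither result therefore bears on whether genes are regulated together.

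The genes that flank each of the 6 in TAIR10.1 order and have a probe set of their own were also read. The 12 flanking genes had a median log2 fold change of 0.031. Of them 3 passed in limma, which is 25% against 24.0% of all probe sets. All 3 were lower in the overexpressors, against 11.8% of all probe sets lower and 12.2% higher. They were AT4G27270, which directly follows GH3.5 (log2 fold change -0.82, SE 0.10, limma adjusted p = 0.00398), AT2G15000, which directly follows GH3.1 (-0.41, adjusted p = 0.0353), and AT4G32290 near IAA29 (-0.35, adjusted p = 0.0443). The calls of AT2G15000 and AT4G32290 were lost with any 1 array left out (adjusted p = 0.0538 to 0.139 and 0.102 to 0.170), and that of AT4G27270 was kept with each array left out. AT4G27250, on the other side of GH3.5, had a log2 fold change of 0.048 (adjusted p = 0.780). These flanking genes are named outside the rule for named genes, after their values were seen.

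**Figure D4:**
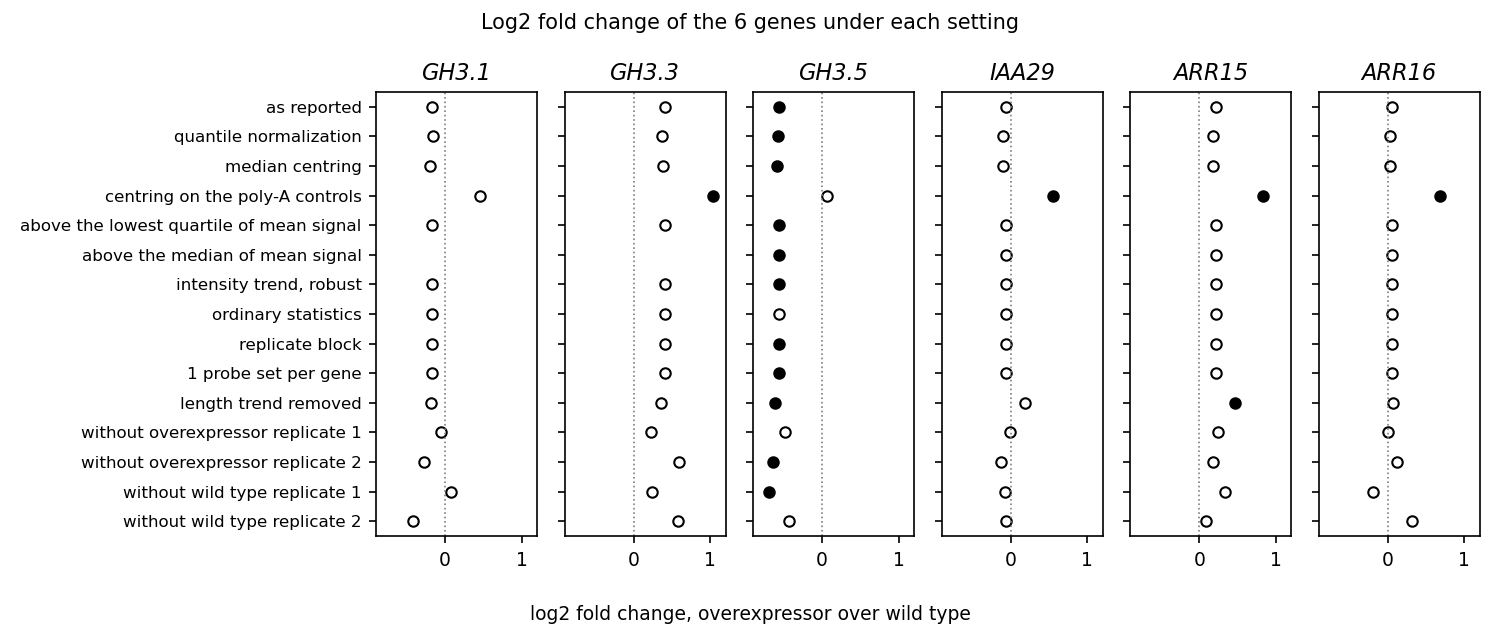
Log2 fold change of the 6 genes as reported and under each alternative setting, with filled points past the adjusted threshold; GH3.1 and GH3.3 have no point above the median of mean signal, since they lie below it. GH3.5 ran from -0.69 to -0.43 except with centring on the poly-A controls (0.058), and GH3.3 was above 0 in every setting shown.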

How the data were processed

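The authors deposited linear signal intensities, 1 for each probe set on each array. RMA is named per the submitters' processing notes, without a version, and how values were returned from log2 is not given here. Log2 was taken, with no further background correction or normalization, and 64 of 22810 probe sets, all controls, were left out. Genes were named from the platform annotation and updated through TAIR10.1 (13436 of 13513 single-gene probe sets matched). The comparison used limma 3.58.1 under R 4.3.3 (lmFit, then eBayes, with a group term only). Tests were two-sided, with Benjamini-Hochberg over 22746 probe sets and 2 residual and 4.24 prior degrees of freedom. On simulated arrays the fit recovered 0.45% of 1.5-fold, 35.8% of 2-fold and 78.6% of 4-fold changes. The simulation changed 200 probe sets, far fewer than passed here, so these shares need not hold for the data. A gene that did not pass is not thereby shown to be unchanged. Differences between genes were tested by exact permutation over arrays. Alternatives were other scalings, filters on dim probe sets, other variance models, the replicate block, 1 probe set per gene, removal of the length trend (lowess, span 0.5, in 4 signal bins) and leaving out each array. Only 2 arrays per group limit the precision. The genes, lists and alternatives were chosen with earlier results of these data known. Genes named are the 6, up to 3 others per role list by smallest p, and for each of the 6 the 2 nearest in pattern; a gene with several probe sets counts by the brightest. Same-numbered arrays showed little shared deviation over probe sets (correlation of same-numbered deviations -0.041). This value cannot show whether they were handled together. No table of gene or protein sequences was used here.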

Additional observations from a re-analysis of the deposited data

How the results depend on the processing

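Of 82 values of the 6 genes under alternatives, 68 kept direction and side of the threshold. The GH3.5 call was lost with ordinary statistics (log2 fold change -0.56, adjusted p = 0.225) and ranged from -0.69 to -0.43 with 1 array left out, which takes the remaining array to vary like the other group; elsewhere than below, its adjusted p was 0.00810 to 0.0943. Centring on the poly-A controls gave 0.058 for GH3.5, 0.45 for GH3.1, 1.03 for GH3.3, 0.55 for IAA29, 0.83 for ARR15 and 0.68 for ARR16 (all but GH3.5 and GH3.1 past the threshold), with 14193 probe sets past it; by construction it adds 0.62 to every fold change. It also turned IAA20 (0.46), IAA34 (0.59), YUC2 (0.55), YUC6 (0.58), UGT84B1 (0.31), ARR18 (0.17), ARR19 (0.61), AT2G15000 (0.21) and AT4G32290 (0.27). With the length trend removed, IAA29 was 0.19, ARR15 0.46 and GH3.9 -0.14, and 2081 probe sets passed; ARR19 was 0.021 after quantile normalization; the cause was not tested. Leaving out 1 array gave ranges of -0.41 to 0.081 for GH3.1, -0.20 to 0.31 for ARR16, 0.093 to 0.33 for ARR15, 0.23 to 0.60 for GH3.3, -0.52 to -0.10 for UGT84B1, -0.61 to -0.29 for ARR18, -0.34 to 0.032 for IAA20, -0.050 to 0.16 for IAA18, -0.13 to 0.077 for IAA34, -0.16 to 0.40 for GH3.9, -0.22 to 0.090 for YUC2, -0.20 to 0.13 for YUC6, -0.062 to 0.45 for UGT73C1, -0.035 to 0.24 for UGT76C1 and -0.078 to 0.054 for ARR19. The 5460 probe sets past the threshold became 3318 to 3586 with 1 array left out, 2677 with 1 probe set per gene, 5 with ordinary statistics and 3612 with the replicate block, which changed no call among the 6 genes (GH3.5 adjusted p = 0.0352). Of the flanking genes, AT2G15000 and AT4G32290 lost their calls with the sign kept in 7 and 9 of 14 settings, that block among them. Centring on the poly-A controls changed the sign of both and also took their calls (limma adjusted p = 0.438 and 0.307). AT4G27270 lost its call in 2 settings. The 776 probe sets at least 2-fold apart became 2973 at 1.5-fold and 192 at 3-fold. The 4 differences between genes kept their sign in every setting run. Only quantile normalization, removal of the length trend and leaving out an array could change their values. GH3.1 minus GH3.5 fell to 0.015 without wild-type replicate 2. No detection calls were used, so how far GH3.1, YUC4, UGT84B1, ARR18 and the dim AUX/IAA genes lie above background is unknown.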
